A study of Rattus norvegicus with 72 samples.

Results

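The genes described here are the transcription factors on a 145-gene qPCR panel whose symbol is Jun, Junb or Jund, or starts with Egr and a digit, with Fos or with Nr4a. The rule found 6 of the 145 genes: Egr1, Fosl1, Jun, Junb, Jund and Nr4a2. They were measured in tissue punches of the dorsal vagal complex (DVC), a brainstem centre for visceral and autonomic signals, and of the central nucleus of the amygdala (CeA), a forebrain nucleus of emotional and autonomic responses. The 72 samples came from 40 male Sprague Dawley rats killed at ZT3, ZT5 or ZT9, where ZT0 is lights on: 7, 17 and 15 DVC samples and 7, 14 and 12 CeA samples in that order, with both regions from 32 animals. All animals were alcohol-naive and untreated, and all were fed the same alcohol-free, maltose-dextrin liquid diet in amounts held down to the caloric intake of matched alcohol-fed rats, so the calorie restriction was shared by every group. Each sample is the bilateral punch of 1 animal.

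Immediate early genes are switched on within minutes of a signal at the cell surface, without new protein synthesis, and code for transcription factors that carry the signal to later genes. Jun, Junb, Jund and Fosl1 (also called Fra-1) are subunits of AP-1, a dimer of a Jun protein with a Fos, Jun or ATF partner. Jun and Jund are usually described as activators and Junb as a weaker activator that can oppose Jun, and Jund is the Jun gene with the steadiest expression in unstimulated cells. Egr1 is a zinc finger factor widely used as a marker of recent neuronal activity. Nr4a2 (Nurr1) is an orphan nuclear receptor that works without a known hormone, is induced by activity and cAMP, and is required for midbrain dopamine neurons.

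The study describes its assays as intron-spanning primers with a short hydrolysis probe. Whether the pair of each member spans an intron was not checked here. The primers of 3 genes are shown, those with the clearest differences between time points (Nr4a2 and Fosl1) and the one with the largest difference towards the CeA (Egr1), because each value below counts the product of such a pair. They run 5′ to 3′ in lower case and no letters are marked.
Nr4a2 forward primer: ccacgtcgactccaatcc
Nr4a2 reverse primer: tagtcagggtttgcctggaa
Fosl1 forward primer: gcaagcgcagacacagac
Fosl1 reverse primer: cactgacagcgttgatgctt
Egr1 forward primer: cgaacaaccctacgagcac
Egr1 reverse primer: gcgccttctcgttattcaga

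In the rat build GRCr8 of RefSeq, Egr1 (gene 24330) lies on chromosome 18 from 26737078 to 26740877 and Fosl1 (gene 25445) on chromosome 1 from 212183885 to 212192391. Jun (gene 24516) lies on chromosome 5 from 115009900 to 115012993, Junb (gene 24517) on chromosome 19 from 40081126 to 40082910, Jund (gene 24518) on chromosome 16 from 18768093 to 18769771 and Nr4a2 (gene 54278) on chromosome 3 from 62098739 to 62115926. RefSeq promoter windows, 250 bases before to 50 bases after a transcript start, were at hand for 5 of the 6 genes (none for Jun). The windows of the same 3 genes are shown, with no site in them tested here: capitals mark matches to the short form TGACG of the cAMP response element (CRE), read on either strand, and to the serum response element, where the SRF and Elk1 proteins bind.
Egr1, chr18:26736828-26737127, plus strand: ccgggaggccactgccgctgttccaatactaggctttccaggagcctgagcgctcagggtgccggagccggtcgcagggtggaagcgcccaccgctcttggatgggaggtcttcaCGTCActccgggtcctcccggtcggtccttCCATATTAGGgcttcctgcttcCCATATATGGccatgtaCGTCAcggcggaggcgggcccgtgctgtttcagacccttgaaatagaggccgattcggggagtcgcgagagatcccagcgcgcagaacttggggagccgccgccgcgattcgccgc
Fosl1, chr1:212183635-212183934, plus strand: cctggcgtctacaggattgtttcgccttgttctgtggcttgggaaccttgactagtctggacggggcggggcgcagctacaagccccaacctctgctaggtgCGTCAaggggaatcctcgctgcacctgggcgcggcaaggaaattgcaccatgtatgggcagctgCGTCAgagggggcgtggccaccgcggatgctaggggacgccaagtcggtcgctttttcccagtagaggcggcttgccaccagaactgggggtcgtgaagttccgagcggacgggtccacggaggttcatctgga
Nr4a2, chr3:62104838-62105137, minus strand: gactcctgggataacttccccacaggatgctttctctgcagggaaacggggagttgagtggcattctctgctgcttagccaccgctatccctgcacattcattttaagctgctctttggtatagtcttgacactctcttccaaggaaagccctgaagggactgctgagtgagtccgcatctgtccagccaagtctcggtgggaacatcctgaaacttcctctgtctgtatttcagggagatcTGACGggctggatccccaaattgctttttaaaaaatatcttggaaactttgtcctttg
The Egr1 window held 2 serum response elements, at -105 to -96 and -83 to -74 from the start, a motif present in 1.64% of the 33469 rat promoter windows of this length. It also held 2 short CRE forms, as did the Fosl1 window, while the Nr4a2 and Junb windows held 1 each and 21.2% of all windows held at least 1. The Nr4a2 window lies inside the annotated gene and so belongs to one of several starts. The Jund window held 3 short CRE forms, of which 2 overlap to make the full CRE TGACGTCA at -221 to -214, found in 1.83% of windows. It also had an EGR site, GCGTGGGCG, at -76 to -68, and EGR sites of this form or of the form GCGGGGGCG were found in 3.20% of windows. None of the 5 windows matched the AP-1 sites TGAGTCA or TGACTCA (4.63% of windows), the Nr4a site AAAGGTCA (1.43%) or the E-box CACGTG (6.42%) on either strand. These matches describe the letters in the windows only.

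A value is a threshold cycle (C_T), the PCR cycle at which product appears, quantile-normalised by the study over all samples. A lower C_T means more transcript, and 1 cycle is a doubling where amplification is ideal. Levels below are normalized C_T. Differences are signed so that a positive value means more transcript in the first group named, and carry a 95% confidence interval. Of the 145 assays, DVC samples lacked 0 to 6 (median 3) and CeA samples 1 to 78 (median 6). CeA ZT5 replicate 1 and CeA ZT9 replicate 10 stood apart, with 78 and 74 failed reactions against at most 9 in any other CeA sample, and Egr1, Jun, Junb and Jund had no value in either. Slc6a2, the noradrenaline transporter expected in the DVC, was measured in 38 of 39 DVC samples and 1 of 33 CeA samples. Of the GABAergic neuron markers, Gad1 differed between the regions by -0.19 cycles (95% CI -0.41 to 0.02, limma adjusted p = 0.11). Slc32a1 differed by -0.27 cycles (-0.52 to -0.03, adjusted p = 0.0431), with more transcript in the CeA. Rgs9 and Scn4b, which mark the striatum beside the CeA, were higher in the DVC, by 0.80 and 2.63 cycles, and the glial genes Clu and Ptgs1 were higher in the CeA, by 0.59 and 0.45 cycles in size. For checks, the animals were split by their numbers into a lower-numbered set (16 DVC and 12 CeA samples) and a higher-numbered set (23 and 21 samples). The cut was placed so that every ZT3 animal lies in the higher-numbered set, which holds all time points. That the lower-numbered set was killed at ZT5 or ZT9 only thus follows from the cut. No batch label marks the sets, and the numbers run on across the cut without a wider gap. The Scn4b difference was 3.27 cycles in the higher and 1.52 cycles in the lower set. That of Rgs9 was 1.07 cycles in the higher set and 0.32 cycles in the lower, where it did not pass (limma adjusted p = 0.16). Such punches hold many cell types, and fewer cells of a type cannot be told apart from less RNA per cell.

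**Figure D1:**
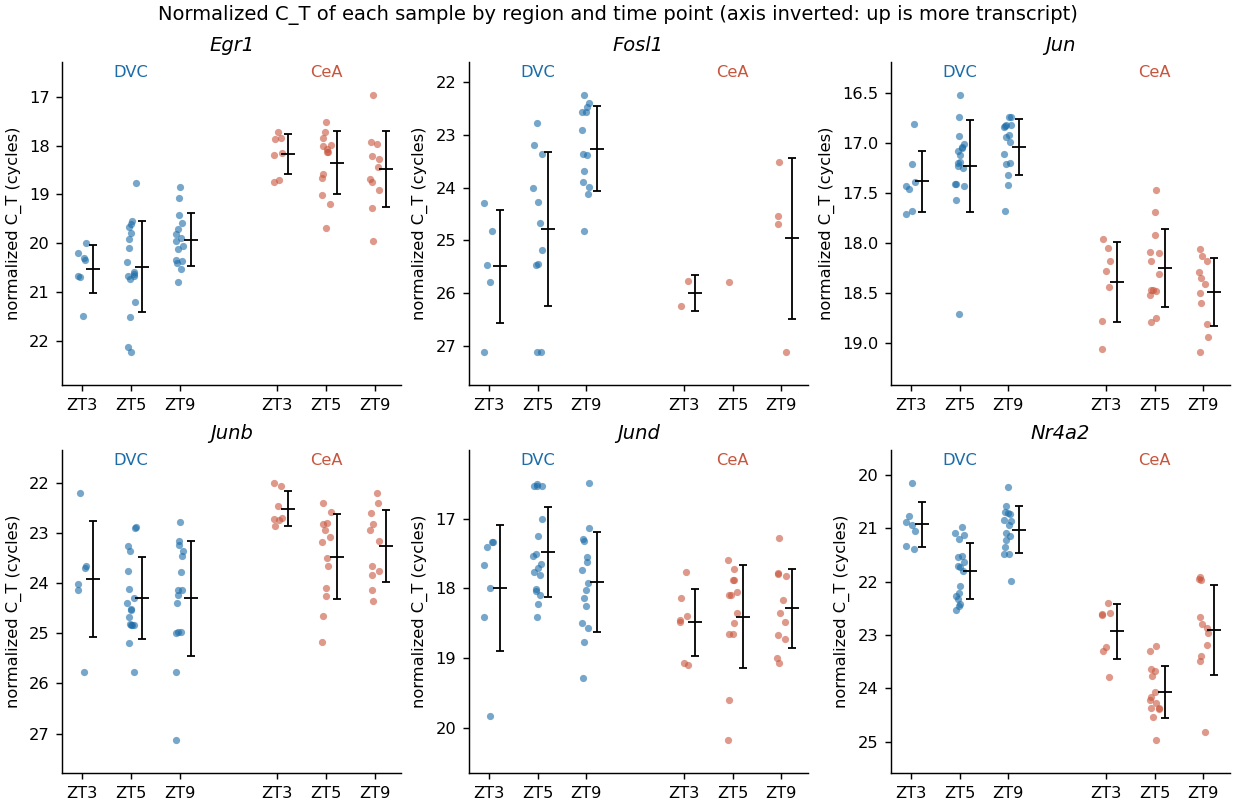
Normalized C_T (cycles, axis inverted so that up is more transcript) of each sample for the 6 genes, by region and time point; points are samples, and black marks are the mean with the SD where a group has over 1 value. Nr4a2 dips at ZT5 in both regions, Fosl1 climbs at ZT9 in the DVC with few CeA values, and Egr1 and Junb sit higher in the CeA while Jun, Jund and Nr4a2 sit higher in the DVC.

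Nr4a2 was lowest at ZT5 in both regions and higher at both ZT3 and ZT9. In the DVC its level was 20.93 ± 0.41 at ZT3 (SD, n = 7), 21.80 ± 0.52 at ZT5 (n = 17) and 21.03 ± 0.44 at ZT9 (n = 15). The lowest, median and highest values were 20.16, 20.93 and 21.39 at ZT3, 20.97, 21.73 and 22.53 at ZT5, and 20.23, 20.93 and 21.99 at ZT9. The groups overlapped: 3 of 7 ZT3 samples and 7 of 15 ZT9 samples lay inside the range of ZT5. The transcript was higher at ZT3 than at ZT5 by 0.87 cycles (95% CI 0.44 to 1.30, 1.83-fold if each cycle doubles the product, limma adjusted p = 0.00927) and higher at ZT9 than at ZT5 by 0.78 cycles (0.44 to 1.12, 1.71-fold, adjusted p = 0.00174). ZT9 and ZT3 differed by -0.09 cycles (-0.53 to 0.34, adjusted p = 0.94).

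In the CeA the same gene was measured in 7 of 7, 14 of 14 and 11 of 12 samples. Its level was 22.93 ± 0.51 at ZT3, 24.07 ± 0.49 at ZT5 and 22.91 ± 0.84 at ZT9. The lowest, median and highest values were 22.40, 22.62 and 23.78 at ZT3, 23.20, 24.19 and 24.96 at ZT5, and 21.91, 22.88 and 24.81 at ZT9. Of the ZT9 samples, 3 of 11 lay inside the ZT5 range, and the least transcript at ZT9 was in the sparsely measured replicate 10. Against ZT5 the transcript was higher by 1.13 cycles at ZT3 (0.55 to 1.71, 2.19-fold, limma adjusted p = 0.0253) and by 1.16 cycles at ZT9 (0.65 to 1.66, 2.23-fold, adjusted p = 0.00681), while ZT9 and ZT3 differed by 0.02 cycles (-0.58 to 0.63, adjusted p = 0.98). The call at ZT3 was lost with the set of animals as a factor (1.09 cycles, adjusted p = 0.0691), with failed reactions set to the highest C_T (adjusted p = 0.218) and on leaving out CeA ZT3 replicate 1, 4, 6 or 7, with adjusted p of 0.0856, 0.0729, 0.0560 and 0.108 and differences of 1.04 to 1.08 cycles.

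Within the lower-numbered animals Nr4a2 was higher at ZT9 than at ZT5 by 0.76 cycles in the DVC (0.27 to 1.25, limma adjusted p = 0.0407) and by 0.71 cycles in the CeA (-0.14 to 1.55, adjusted p = 0.60). Within the higher-numbered animals the same difference was 0.97 cycles in the DVC (0.44 to 1.5, adjusted p = 0.11) and 1.70 cycles in the CeA (1.07 to 2.33, adjusted p = 0.00180). ZT3 was sampled in the higher-numbered animals alone, where it exceeded ZT5 by 0.81 cycles in the DVC (0.34 to 1.29, adjusted p = 0.0777) and by 1.25 cycles in the CeA (0.72 to 1.78, adjusted p = 0.00394). All of these point estimates were positive, and 3 of the 6 passed the test. In the DVC the astrocyte gene Clu moved over the same time points (limma F-test adjusted p = 0.00580), with ranges of 12.17 to 12.20 at ZT3, 11.38 to 14.31 at ZT5 and 12.17 to 13.47 at ZT9, and its part in the Nr4a2 difference was not tested. Its SD at ZT3 was 0.014 cycles, since quantile normalisation sets a value by the rank of the assay in its sample. Clu differences are thus shifts of rank among assays of low C_T, in steps that are not measured amounts. Of the 7 marker genes, Clu and the GABA transporter gene Slc32a1 (adjusted p = 0.0276) changed over time in the DVC, and 0 of the 6 tested changed in the CeA (0 also at an unadjusted p of at most 0.05).

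Fosl1 rose at ZT9 in the DVC and was the one member that was often not measured. Its level in the DVC was 25.50 ± 1.08 at ZT3 (SD, 5 of 7 samples), 24.79 ± 1.46 at ZT5 (11 of 17) and 23.26 ± 0.81 at ZT9 (13 of 15). The lowest, median and highest values were 24.29, 25.47 and 27.12 at ZT3, 22.78, 24.68 and 27.12 at ZT5, and 22.25, 23.36 and 24.81 at ZT9. The value 27.12 is the highest on the normalized scale, given to the last assay to cross threshold in a sample, so values there have no order; 1 ZT3 and 2 ZT5 samples held it. Of the 13 ZT9 samples, 1 lay inside the ZT3 range and 8 inside the ZT5 range.

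Against ZT5 the Fosl1 transcript was higher at ZT9 by 1.52 cycles (95% CI 0.64 to 2.41, 2.88-fold, limma adjusted p = 0.0189), and against ZT3 by 2.23 cycles (1.09 to 3.37, 4.70-fold, adjusted p = 0.0181). ZT3 and ZT5 differed by -0.71 cycles (-1.88 to 0.46, adjusted p = 0.64). The ZT9 to ZT5 difference was 1.66 cycles within the lower-numbered animals (0.61 to 2.71, adjusted p = 0.0415) and 1.09 cycles within the higher-numbered animals (-0.29 to 2.47, adjusted p = 0.66). The ZT9 to ZT3 difference could be formed within the higher-numbered animals alone, at 1.74 cycles (0.21 to 3.27, adjusted p = 0.75). Leaving out DVC ZT5 replicate 12 or 13, both at 27.12, gave ZT9 to ZT5 differences of 1.29 cycles and adjusted p of 0.0526 and 0.0524, and with every value at 27.12 left out it was 1.01 cycles (adjusted p = 0.0746). Leaving out DVC ZT3 replicate 2, 4 or 6 took the adjusted p of the ZT9 to ZT3 difference to 0.0715, 0.0555 and 0.12, at 1.83 to 2.24 cycles.

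**Figure D2:**
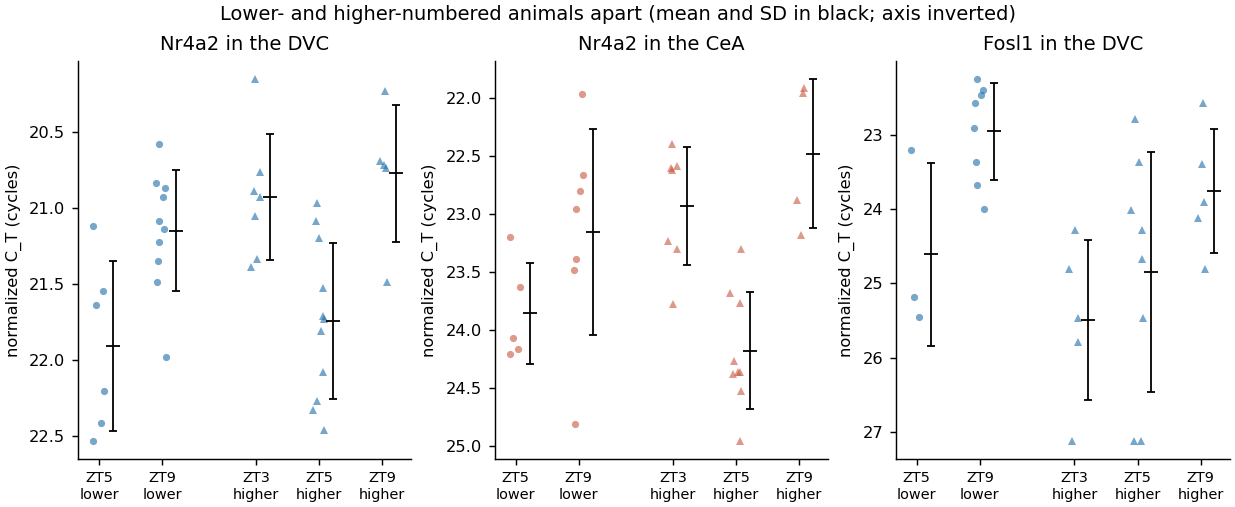
Normalized C_T (cycles, axis inverted) of Nr4a2 in the DVC, Nr4a2 in the CeA and Fosl1 in the DVC, with lower-numbered animals as circles and higher-numbered animals as triangles; black marks are means and SD, and ZT3 has higher-numbered animals only. The Nr4a2 dip at ZT5 lies in both sets, by 0.76 and 0.97 cycles against ZT9 in the DVC, and the Fosl1 step from ZT5 to ZT9 is 1.66 cycles in the lower and 1.09 cycles in the higher set.

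Fosl1 was measured more often in the DVC than in the CeA. A C_T was recorded in 29 of 39 DVC samples (74.4%) and 7 of 33 CeA samples (21.2%), with an odds ratio of 10.3 (95% CI 3.19 to 38.0) and p = 1.34e-05 by a 2-sided Fisher's exact test. Over the 32 animals with both regions, 7 gave a value in both, 19 in the DVC alone, 0 in the CeA alone and 6 in neither (exact McNemar test, p = 3.81e-06). Within the lower-numbered animals the counts were 11 of 16 and 3 of 12 (Fisher's exact p = 0.0542), and within the higher-numbered animals 18 of 23 and 4 of 21 (p = 0.000203). By time point the DVC counts were 5 of 7, 11 of 17 and 13 of 15 at ZT3, ZT5 and ZT9, and the CeA counts 2 of 7, 1 of 14 and 4 of 12. The share was lowest at ZT5 in both regions, and no test of time was made on these counts.

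The 7 CeA values of Fosl1 were 25.77 and 26.25 at ZT3, 25.78 at ZT5, and 23.51, 24.53, 24.68 and 27.12 at ZT9. They lie inside the DVC range of 22.25 to 27.12 and are too few for a fitted time point or region effect. Samples without a Fosl1 value had later cycles across the panel: the median of the samples' median raw C_T was 19.59 without and 18.74 with a value in the DVC, and 20.27 without and 19.18 with a value in the CeA. The part of that gap in the failed reactions was not tested, and a failed reaction does not show that the transcript was absent. Fosl1 was 1 of 4 panel genes with a value in under 50% of CeA samples.

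**Figure D3:**
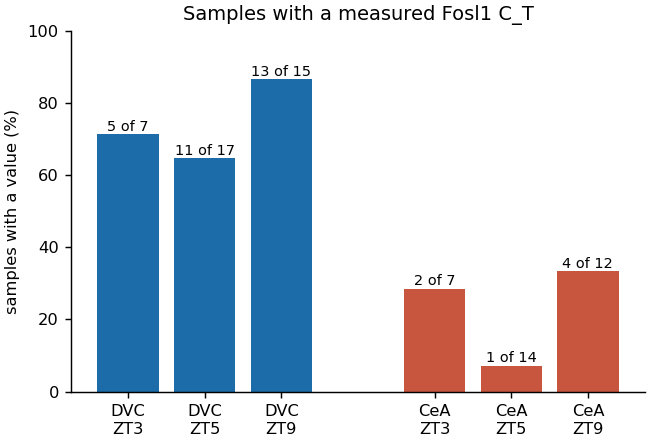
Share of samples with a measured Fosl1 C_T (%, bars from 0) in each region and time point, with the counts above the bars. All 3 DVC bars, from 64.7% to 86.7%, stand above all 3 CeA bars, from 7.14% to 33.3%.

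Egr1 did not pass the test over time in either region (limma F-test adjusted p = 0.248 in the DVC and 0.833 in the CeA). In the DVC it was 20.53 ± 0.49 at ZT3 (SD, n = 7), 20.48 ± 0.93 at ZT5 (n = 17) and 19.92 ± 0.54 at ZT9 (n = 15), with all 15 ZT9 samples inside the ZT5 range of 18.76 to 22.23. ZT9 exceeded ZT5 by 0.55 cycles (95% CI 0.05 to 1.06), which missed the adjusted threshold (limma unadjusted p = 0.0328, adjusted p = 0.16). That difference was 0.25 cycles (-0.50 to 1.0) in the lower-numbered animals and 1.12 cycles (0.40 to 1.83) in the higher-numbered ones. In the CeA its level was 18.17 ± 0.41 (n = 7), 18.35 ± 0.64 (n = 13) and 18.48 ± 0.78 (n = 11), and ZT9 and ZT5 differed by -0.14 cycles (-0.66 to 0.39, adjusted p = 0.84).

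Of the Jun genes, 0 of 3 passed the adjusted F-test over time in either region, with 0 in the DVC and 1 (Junb in the CeA) at an unadjusted p of at most 0.05. Jun varied least of the members. Its level was 17.39 ± 0.31, 17.23 ± 0.46 and 17.04 ± 0.28 at ZT3, ZT5 and ZT9 in the DVC (SD, n = 7, 17 and 15) and 18.39 ± 0.40, 18.25 ± 0.39 and 18.49 ± 0.34 in the CeA (n = 7, 13 and 11). The SD pooled within time points was 0.37 cycles in DVC and 0.38 in CeA samples, where the median panel gene had 0.52 in both, and 120 panel genes varied more than Jun in each region. All 3 pairwise differences of Jun had intervals that include 0 in both regions, the widest reaching from -0.02 to 0.70 cycles for ZT9 against ZT3 in the DVC and from -0.49 to 0.29 in the CeA.

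Junb varied more, with a pooled SD of 1.01 cycles in the DVC that 9 panel genes exceeded. Its DVC level was 23.92 ± 1.15 at ZT3 (SD, n = 6 of 7), 24.29 ± 0.81 at ZT5 (n = 17) and 24.30 ± 1.14 at ZT9 (n = 15, 1 of them at 27.12). In the CeA the level was 22.51 ± 0.35 at ZT3 (n = 7), 23.47 ± 0.85 at ZT5 (n = 13) and 23.26 ± 0.73 at ZT9 (n = 11). The 7 ZT3 values, with a median of 22.70 and a highest of 22.86, lay at the high-transcript end, and 5 of them were inside the ZT5 range of 22.40 to 25.18. ZT3 exceeded ZT5 by 0.96 cycles (95% CI 0.30 to 1.62, 1.95-fold, limma unadjusted p = 0.00556, adjusted p = 0.11), which missed the threshold with the deposited normalisation and passed it with each sample centred on its median (1.21 cycles, adjusted p = 0.0373). Within the higher-numbered animals, which hold all ZT3 samples, it was 0.98 cycles (0.27 to 1.69, adjusted p = 0.11).

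Jund was 17.99 ± 0.90, 17.48 ± 0.64 and 17.91 ± 0.72 at ZT3, ZT5 and ZT9 in the DVC (SD, n = 7, 17 and 15) and 18.49 ± 0.48, 18.40 ± 0.74 and 18.29 ± 0.57 in the CeA (n = 7, 13 and 11). In the DVC the estimates ran opposite to those of Nr4a2, with less Jund at ZT3 and ZT9 than at ZT5 by -0.52 (95% CI -1.15 to 0.11) and -0.43 cycles (-0.93 to 0.07), and neither passed (limma adjusted p = 0.47 and 0.33). DVC ZT3 replicate 1, at 19.83, held the least transcript of all DVC samples. In the CeA all 3 differences were at most 0.20 cycles in size, with intervals that include 0.

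**Figure D4:**
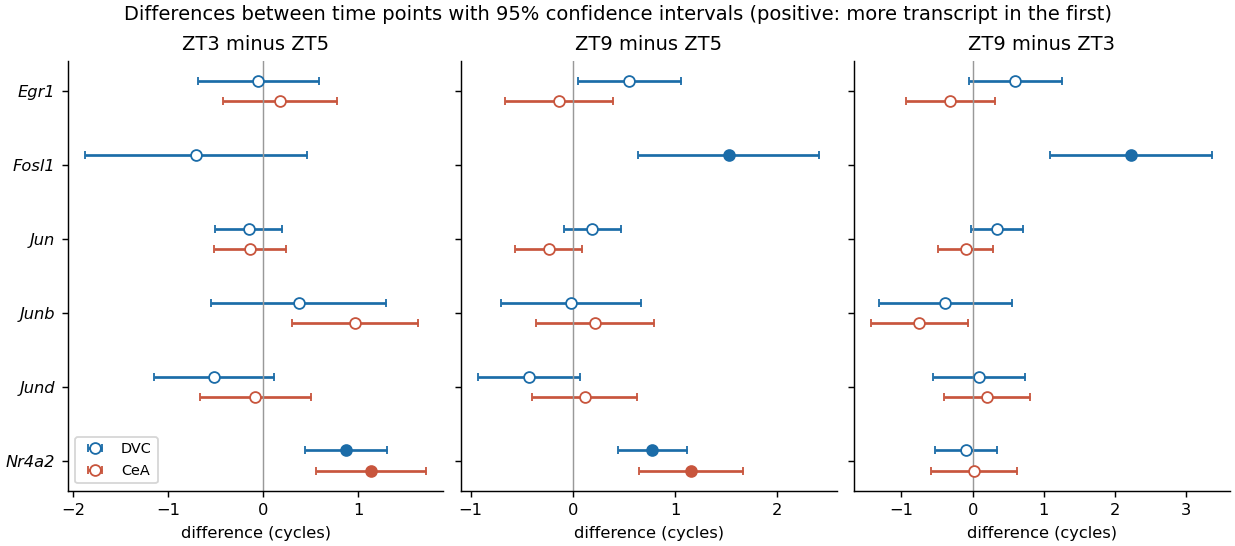
Differences between time points (cycles, positive where the first time point has more transcript) for each gene in the DVC and the CeA, as points with 95% confidence intervals; filled points have a limma adjusted p of at most 0.05, and Fosl1 has no CeA estimate. Nr4a2 lies to the right of 0 against ZT5 in both regions, by 0.78 to 1.16 cycles, and Fosl1 has the largest step, 2.23 cycles from ZT3 to ZT9.

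Read against the panel, 2 of the 6 members passed the F-test over time in the DVC (Nr4a2, limma adjusted p = 0.000827, and Fosl1, adjusted p = 0.00580), where 15 of 145 genes or 10.3% did. In the CeA 1 of the 5 tested members passed (Nr4a2, adjusted p = 0.00484), where 5 genes or 3.52% of those tested did. For single differences the DVC background was 5.52% for ZT3 against ZT5 (1 of 6 members), 7.59% for ZT9 against ZT5 (2 of 6) and 2.07% for ZT9 against ZT3 (1 of 6). The CeA background was 1.41% (1 of 5), 4.93% (1 of 5) and 0.704% (0 of 5 members, and Junb at an unadjusted p of at most 0.05). The median difference of ZT9 from ZT5 in the DVC was 0.37 cycles over the members and 0.02 cycles over all genes, and in the CeA 0.12 against -0.0036 cycles. The members were spread widely, from -0.43 (Jund) to 1.52 cycles (Fosl1) in the DVC and from -0.24 (Jun) to 1.16 cycles (Nr4a2) in the CeA. Differences that share ZT5 are not independent of each other.

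The interaction of time point and region asks whether the time course of a gene differed between the DVC and the CeA. It was called for 0% of the genes tested by limma after adjustment, while 15 genes and 0 of the 5 members had an unadjusted p of at most 0.05. Among the members the lowest were Egr1 (unadjusted p = 0.0806, adjusted p = 0.57) and Jun (0.0895 and 0.61). For Nr4a2 the unadjusted p was 0.42, so a difference between its course in the DVC and in the CeA was not detected.

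All 5 members with enough values differed between the regions, in both directions, and 102 panel genes (71.8% of those tested) did so too. The DVC had more Nr4a2, by 2.07 cycles (95% CI 1.81 to 2.33, 4.21-fold, limma adjusted p = 5.44e-24), more Jun, by 1.18 cycles (0.99 to 1.36, 2.26-fold, adjusted p = 1.66e-18), and more Jund, by 0.64 cycles (0.31 to 0.96, 1.55-fold, adjusted p = 0.000390). The CeA had more Egr1, with a DVC minus CeA difference of -1.92 cycles (-2.26 to -1.59, 3.79-fold, adjusted p = 7.13e-17), and more Junb, at -1.02 cycles (-1.43 to -0.60, 2.02-fold, adjusted p = 1.51e-05). Over all time points the lowest, median and highest levels of Egr1 were 18.76, 20.29 and 22.23 in DVC samples and 16.97, 18.20 and 19.96 in CeA samples. Those of Jun were 16.53, 17.19 and 18.71 in DVC samples and 17.47, 18.35 and 19.09 in CeA samples. The 3 Jun genes split, with Jun and Jund higher in the DVC and Junb higher in the CeA. Over the panel, 42.3% of genes were called higher in the DVC and 29.6% higher in the CeA.

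The region ranges overlapped for each of these 5 members, where 3.52% of genes had ranges apart. Few samples did so for Nr4a2 and Egr1: 8 of 39 DVC and 4 of 32 CeA samples of Nr4a2, and 13 of 39 DVC and 6 of 31 CeA samples of Egr1, lay inside the range of the other region. For Jun 5 of 39 DVC and 24 of 31 CeA samples did, for Junb 33 of 38 and 29 of 31, and for Jund 31 of 39 and 30 of 31. The Junb difference was -1.11 cycles (-1.61 to -0.62, limma adjusted p = 0.000111) in the higher-numbered animals and -0.76 cycles (-1.45 to -0.07, adjusted p = 0.0531) in the lower-numbered ones, and the other 4 members passed in both sets. It was also lost with each region normalised on its own, at -0.40 cycles (adjusted p = 0.0660), and without normalisation, at -0.47 cycles (adjusted p = 0.0989).

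By their mean levels, the 6 groups of Nr4a2 ran from DVC ZT3 (20.93) through DVC ZT9 (21.03), DVC ZT5 (21.80), CeA ZT9 (22.91) and CeA ZT3 (22.93) to CeA ZT5 (24.07), from most to least transcript. DVC ZT3 and DVC ZT9, and CeA ZT9 and CeA ZT3, differed by less than their SD. For Egr1 all CeA groups (18.17 to 18.48) came before all DVC groups (19.92 to 20.53), and within each region the neighbours differed by less than the larger of their SDs. For Jun the order was reversed, with all DVC groups (17.04 to 17.39) before all CeA groups (18.25 to 18.49) and neighbours within a region closer than their SD. Junb placed its CeA groups (22.51 to 23.47) before its DVC groups (23.92 to 24.30), and Jund its DVC groups (17.48 to 17.99) before its CeA groups (18.29 to 18.49), with neighbours within their SD except CeA ZT3 and CeA ZT9 of Junb, which were 0.75 cycles apart (-1.43 to -0.07 as ZT9 minus ZT3, limma adjusted p = 0.50).

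No pair of members passed the test of varying together between animals of the same time point. Correlations were computed on deviations from the time point means, and adjusted over all 1676 pairs of a member with a panel gene in the 2 regions. Of the 15 pairs of members, 0 passed in either region, while 5 DVC and 2 CeA pairs were at an unadjusted permutation p of at most 0.05, as were 203 of the 849 DVC and 95 of the 827 CeA pairs of a member with a panel gene. The share of member and panel gene pairs that passed was 5.18% for DVC samples and 0.967% for CeA samples. The closest pair was Junb with Jund, at r = 0.53 in the DVC (38 samples, permutation p = 0.00162, adjusted p = 0.0512; rho = 0.54, p = 0.00074; r = 0.55 without the 2 samples farthest out in Junb). In the CeA the same pair had r = 0.51 (31 samples, permutation p = 0.00735, adjusted p = 0.10; rho = 0.34, p = 0.0785), which rests on 2 samples, without which r was 0.23.

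In the DVC Jun and Nr4a2 had r = -0.48 (39 samples, permutation p = 0.00169, adjusted p = 0.0525; rho = -0.47, p = 0.00378; r = -0.46 without 2 samples), and in the CeA the pair had r = 0.15 (30 samples, permutation p = 0.45). Jun and Jund gave r = 0.40 in the DVC (39 samples, permutation p = 0.00982, adjusted p = 0.12; rho = 0.39, p = 0.0153; r = 0.24 without 2 samples). Egr1 and Junb gave r = 0.47 in the CeA (31 samples, permutation p = 0.0133, adjusted p = 0.14; rho = 0.51, p = 0.00583; r = 0.37 without 2 samples) and r = 0.03 in the DVC. Fosl1 correlated with no other member beyond r = -0.21 in the DVC (29 samples), and in the CeA it shares 6 samples with the others, too few to be read.

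In both sparsely measured CeA samples the same 74 assays failed, and these were treated as one set and the other 71 as a second. Egr1, Jun, Junb and Jund are among the 74 and Nr4a2 is among the 71. Fosl1 was counted with the 74, but since it failed in most CeA samples its set cannot be told. In the DVC the median r over all gene pairs was 0.21 within a set and -0.20 between sets, and in the CeA 0.0632 and -0.0463. With each set centred on its own median, which brought the DVC medians to 0.0484 and -0.00751, Junb with Jund had r = 0.39 and Jun with Nr4a2 r = -0.32.

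**Figure D5:**
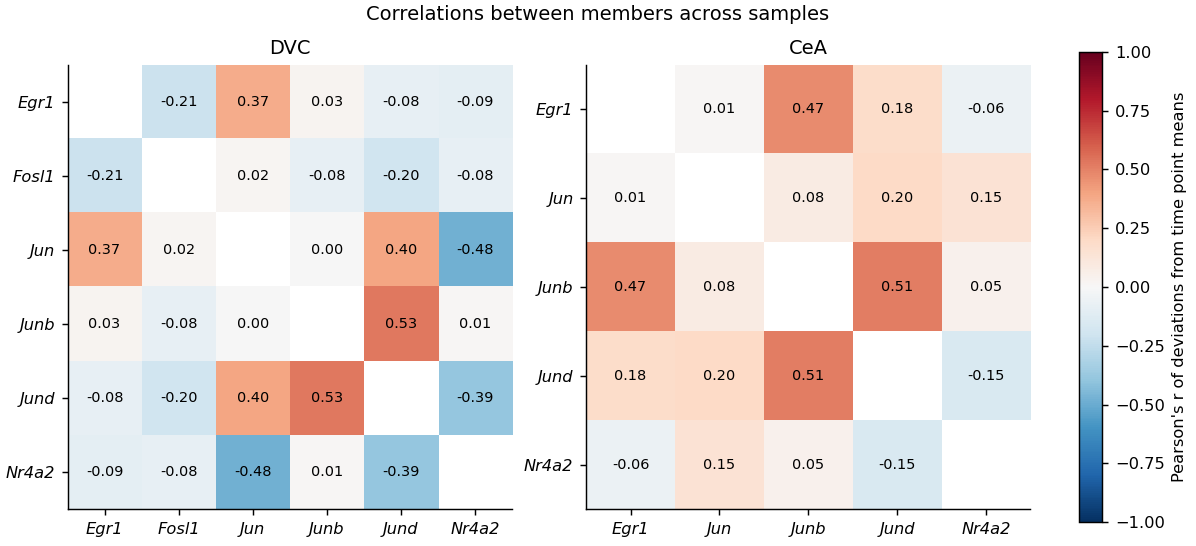
Pearson's r between the members across samples, on deviations from the time point means, in the DVC (6 genes, 29 to 39 samples a pair) and the CeA (5 genes, 30 or 31 samples a pair; Fosl1 left out); red is positive and blue negative. Junb with Jund is the reddest cell in both regions, at 0.53 and 0.51, and Jun with Nr4a2 the bluest in the DVC, at -0.48.

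The 2 nearest panel genes of each member, those with the highest r, came from 140 to 143 genes compared, few of them other members. Among the 2 genes with the highest r in the DVC were Plcb3 (0.67) for Jun, Mapk3 (0.60) and Rasa1 (0.60) for Junb, Hcn2 (0.66) and Agtrap (0.60) for Jund, Terf1 (0.49) for Nr4a2, Kcnj9 (0.46) and Pak1 (0.44) for Egr1, and Gabra5 (0.45) and Rasgrp1 (0.43) for Fosl1, over 29 to 39 samples. Mapk3 codes for ERK1, the kinase that signals to Elk1, and Rasa1 for a GTPase activating protein that switches off Ras. In the CeA they were Gabrq (0.66) and Oprm1 (0.57) for Egr1, Plcb2 (0.61) and Grin2a (0.38) for Jun, Prkce (0.61) and Pebp1 (0.57) for Junb, Prkce (0.65) and Junb (0.51) for Jund, and Terf1 (0.48) and Prkca (0.47) for Nr4a2, over 25 to 31 samples. Terf1, a telomere-binding protein gene, was thus among the nearest genes of Nr4a2 in both regions, with adjusted p of 0.0864 and 0.15. Of all 22 pairs of a member with its 2 nearest genes, 11 had an adjusted permutation p of at most 0.05, where 52 of all 1676 pairs did. The 22 pairs were picked for their high r in these same data, which raises that count. Among the 11 was Jund with Hcn2 at an adjusted permutation p of 0.00239 (39 samples, unadjusted p of r = 1.0e-05, the smallest the draws can give). For this pair rho was 0.67 (permutation p = 2.0e-05), and r was 0.62 without 2 samples. Of the 20 pairs whose member has a known assay set, 15 had both genes in the same set. Once the sets were centred apart, the pairs did not hold up alike. In the DVC r was then 0.51 for Jun with Plcb3 and 0.65 for Jund with Hcn2, but 0.18 for Egr1 with Pak1. In the CeA r of Junb with Pebp1 went from 0.57 to 0.14.

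No member passed the test of a shared level in the 2 regions of the same animal. Over 29 to 31 animals r between the regions was 0.31 for Egr1 (permutation p = 0.11; rho = 0.28, p = 0.14; 0.09 without 2 animals), -0.18 for Jun, 0.01 for Junb, 0.04 for Jund and -0.11 for Nr4a2. After adjustment 0% of the 143 genes passed the permutation test, while 20 genes and 0 members had a raw p no higher than 0.05, and the median r over all genes was 0.0653.

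The panel also holds genes that act upstream of these factors. Of 5 proteins that work at their promoters (Creb1, Crebbp, Atf2, Elk1 and Sp1), 0 passed the F-test over time in the DVC or the CeA, with 2 of 5 and 3 of 5 at an unadjusted p of at most 0.05, where 31 of the 145 panel genes in the DVC and 22 of those tested in the CeA were. Crebbp, the coactivator that CREB recruits, had the smallest value (CeA, limma adjusted p = 0.0531), and was higher at ZT9 than at ZT5 in the CeA by 0.67 cycles (95% CI 0.31 to 1.02, adjusted p = 0.0253). Creb1 was higher at ZT9 than at ZT5 in the CeA as well, by 0.92 cycles (0.39 to 1.44, adjusted p = 0.0356), and had 0.84 cycles in the DVC (0.28 to 1.40, adjusted p = 0.0529). Elk1, the SRF partner, had -0.80 cycles at ZT3 against ZT5 in the CeA (-1.31 to -0.29, adjusted p = 0.0901), and Sp1, a general GC-box factor, 0.36 cycles at ZT9 against ZT5 in the DVC (0.11 to 0.62, adjusted p = 0.0594).

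Of 8 genes of the kinase cascade (among them Map2k1, Mapk3, Map3k11 and Dusp6), 0 passed over time in either region, with 1 of 8 in the DVC (Mapk3) and 0 of 8 in the CeA at an unadjusted p of at most 0.05. Between the regions 6 of 8 differed, 4 higher in the DVC and 2, Dusp6 and Map3k11, higher in the CeA, near the 71.8% of the panel; these 2 are named here after their values were seen. Dusp6, the phosphatase that switches ERK off, differed most, at -0.75 cycles (95% CI -0.97 to -0.53, limma adjusted p = 9.71e-09). Of the promoter-acting proteins 3 of 5 differed between the regions, and of the other transcription factors Mycn and Zeb1 0 of 2 differed by region or over time.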

How the data were processed

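Per the labels, RNA of micropunched tissue was reverse transcribed (100 ng), preamplified for 14 cycles and measured by high-throughput qPCR with intron-spanning primers. The authors deposited threshold cycles (C_T), a log2 scale in which a lower value is more transcript, as raw values and after quantile normalisation. Failed reactions are missing. Recomputing that normalisation over all samples gave the deposited values to 4.99e-09 cycles. A further deposited table holds the authors' own means and differences of means and was not used.

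Groups came from the labels. Differences were tested on the sign-turned normalized C_T with limma 3.58.1 in R 4.3.3, moderated F-tests and contrasts, Benjamini-Hochberg over all genes that had 2 or more values per time point, threshold 0.05. Region was fitted with time point as a covariate. Correlations used 100000 permutations within time points (numpy 2.4.6, scipy 1.17.1). A permutation cannot give a p under 1.0e-05. Separate punches of 1 animal are the samples, so p-values measure the spread between animals. Same-numbered samples of a time point come from the same animal, which was the replicate block (within-animal correlation 0.0585). The limma tests and the permutation test of correlations were checked on simulated data.

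All 6 members were named in full, with the 2 panel genes of highest r over at least 20 samples and the 4 listed genes of smallest adjusted F-test p; some of the panel genes this rule or the lists name are not reported here. The members and gene lists were chosen with earlier results of these data known.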

Additional observations from a re-analysis of the deposited data

How the results depend on the processing

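The 6 called differences between time points kept their sign under every alternative, but not their calls. Nr4a2 at ZT9 against ZT5 in the CeA lost its call with failed reactions set to the highest C_T (0.81 cycles, adjusted p = 0.273) and without normalisation (1.27 cycles, adjusted p = 0.155). Fosl1 at ZT9 against ZT3 lost it with failed reactions set there (adjusted p = 0.191), with the set of animals as a factor (0.325), with median centring (0.122; 0.0711 by assay set) and without normalisation (0.0957), and against ZT5 with the set of animals as a factor (0.0543). The count of members called over time in the DVC was 2, and 1 when genes with any failed reaction were left out, with the set of animals as a factor and in the higher-numbered animals; it was 2 to 2 on leaving out each sample. In the CeA it was 1, with 0 when failed reactions were set to the highest C_T and 0 in the lower-numbered animals, 2 without adjustment, and 1 to 1 on leaving out each sample; no member has a value in every CeA sample, so that filter gave no value there. With the replicate block, the pairing by animal, the region count stayed at 5, the interaction count at 0 and the paired detection test gave p = 3.81e-06, and it changed no call. The correlation count in the DVC was 0, with 2 after median centring, 7 without normalisation and 2 with time point means kept, and in the CeA 0, with 10 without normalisation. Without normalisation r of Jun with Nr4a2 in the DVC turned from -0.48 to 0.59. The Fosl1 F-test in the DVC had adjusted p = 0.055 with the set of animals as a factor and 0.637 in the higher-numbered animals. Centring each assay set apart and leaving out values at the highest C_T were chosen after seeing the data. The cause of these changes was not tested. Fosl1 has 7 values in the CeA, too few for a fit.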
